A study of Mus musculus with 2 samples.

Results

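The BCL2 family of survival and death genes was followed through 10 of its members in every cell class of mouse bone marrow carrying a leukaemia-associated RUNX1 mutant, with and without Phf6. The members were listed by symbol, with earlier results of these data known. All 10 were among the 32285 genes counted. Bcl2, Bcl2l1 (which encodes BCL-XL), Mcl1 and Bcl2a1b (A1) encode the anti-apoptotic members, Bax and Bak1 the pore-forming members, and Bcl2l11 (BIM), Bbc3 (PUMA), Pmaip1 (NOXA) and Bid the BH3-only members.

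In the study, marrow cells of mice with Phf6 (wild type, WT) or without it (Phf6 KO) received a vector that encodes RUNX1-S291fs together with GFP. GFP-positive cells were transplanted, and 8 weeks later GFP+Lin- cells, the transduced cells without surface markers of mature lineages, were sorted from the marrow of the recipients. Each genotype has 1 single-cell RNA library, so both groups carry the RUNX1 mutant and the only labelled difference is Phf6. The number of donor and recipient mice, the exons that the knockout removes and the promoter of the vector are not given in the sources used here, and no library of cells without the RUNX1 vector was analysed here.

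The BCL2 family decides whether the outer membrane of the mitochondrion is breached. BH3-only proteins sense growth factor loss, DNA damage or other stress and bind the anti-apoptotic members, and some activate BAX and BAK directly, whereupon these form the pores that release cytochrome c and set off caspases. In blood formation MCL-1 is needed by stem cells and myeloid cells, BCL-XL by platelets and maturing red cells, and BCL-2 by lymphocytes.

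The libraries held 131667969 (WT) and 120408100 (KO) unique molecular identifiers (UMIs, counted RNA molecules) in 5287 and 5260 cell barcodes, 10 of which occurred in both libraries. The filters kept 4478 WT and 4709 KO cells, at median depths of 24814 and 21421 UMIs. Phf6 itself stood at 41.8 counts per 1000000 UMIs (CPM) in WT and 20.6 in KO cells. That is a log2 ratio of -1.02 (interval -1.09 to -0.95), and whether the counted 3′ end lies in the deleted part is not known. Cells formed 21 clusters, of which 20 had at least 50 cells in each library. The classes that markers could name were stem and multipotent progenitor-like (HSC/MPP-like), megakaryocyte-like, erythroid-like, basophil or mast cell-like, neutrophil progenitor-like, monocyte-like and B cell-like. A plasma cell-like cluster of 53 WT and 0 KO cells was left out of the comparisons. The erythroid-like and B cell-like classes were 1 cluster each, with 98 and 51 KO cells. Clusters that no marker list could name are given by number and leading genes. The clustering did not use any BCL2 family gene, so a member's level across clusters was not set by the grouping.

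On GRCm38, GENCODE places Bcl2 (ENSMUSG00000057329) on chromosome 1 from 106538178 to 106714274 (minus strand), Bcl2l1 (ENSMUSG00000007659) on chromosome 2 from 152780668 to 152831728 (minus) and Mcl1 (ENSMUSG00000038612) on chromosome 3 from 95658788 to 95663176 (plus). Bcl2a1b (ENSMUSG00000089929) lies on chromosome 9 from 89199209 to 89207827 (plus), Bax (ENSMUSG00000003873) on chromosome 7 from 45461697 to 45466898 (minus) and Bak1 (ENSMUSG00000057789) on chromosome 17 from 27019810 to 27029009 (minus). Of the BH3-only genes, Bcl2l11 (ENSMUSG00000027381) lies on chromosome 2 from 128126038 to 128162547 (plus), Bbc3 (ENSMUSG00000002083) on chromosome 7 from 16308393 to 16318205 (plus) and Bid (ENSMUSG00000004446) on chromosome 6 from 120891930 to 120916853 (minus). The values cover whole genes, since 3′ counts do not separate exons or isoforms.

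All intervals are exact 95% intervals of the counts and cover counting error only. With 1 library per genotype there is no spread between mice and no test. A gene is counted as higher or lower in KO cells when it passed 1.5-fold and had a mean of at least 10 CPM, and the share of all such genes that did so is given as the background. The 3′ UMI counts take each molecule once, so CPM was compared between genes without division by transcript length; differences in capture between genes were not corrected.

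Bcl2a1b was the member whose RNA was the most restricted to few cells, and it is also the member whose counts are the least certain, because mice carry near-identical copies of the gene. Transcripts of Bcl2a1a, Bcl2a1b and Bcl2a1d were 98.2% to 99.1% identical, and their last 300 bases, where 3′ reads fall, 98.7% to 99.3%. The counting of reads that match several copies was not stated in the sources used here, so the split between copies is uncertain. The copies share their promoters as well, which were 98.0% to 99.2% identical over the aligned bases. RefSeq windows on GRCm38.p6 from 250 bases before to 50 bases after the start are shown to let the copies be compared, with GAGGAAGT, a form of the purine-rich box that ETS factors such as PU.1 can bind, in capitals. They lie at chr9:89199023-89199322 on the plus strand (Bcl2a1b), chr9:88956670-88956969 on the plus strand (Bcl2a1a) and chr9:88731801-88732100 on the minus strand (Bcl2a1d).
Bcl2a1b: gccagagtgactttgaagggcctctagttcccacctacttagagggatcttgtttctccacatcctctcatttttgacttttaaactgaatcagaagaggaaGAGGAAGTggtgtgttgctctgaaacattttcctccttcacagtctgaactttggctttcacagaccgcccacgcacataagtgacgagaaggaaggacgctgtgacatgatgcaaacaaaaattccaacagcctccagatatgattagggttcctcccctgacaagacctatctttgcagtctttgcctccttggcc
Bcl2a1a: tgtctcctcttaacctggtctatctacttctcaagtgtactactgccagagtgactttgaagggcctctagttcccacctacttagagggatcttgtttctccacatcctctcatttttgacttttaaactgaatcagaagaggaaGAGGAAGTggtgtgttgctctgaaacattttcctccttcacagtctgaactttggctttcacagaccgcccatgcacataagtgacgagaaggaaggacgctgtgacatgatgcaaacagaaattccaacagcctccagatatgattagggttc
Bcl2a1d: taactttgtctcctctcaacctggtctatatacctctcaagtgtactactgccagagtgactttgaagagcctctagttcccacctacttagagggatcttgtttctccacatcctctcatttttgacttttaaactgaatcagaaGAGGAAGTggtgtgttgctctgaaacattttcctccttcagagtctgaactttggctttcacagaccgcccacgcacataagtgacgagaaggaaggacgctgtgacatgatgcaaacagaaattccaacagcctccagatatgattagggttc
Each of the 3 windows held GAGGAAGT 1 time. Searched on both strands, it occurred in 3.20% of the 32851 promoter windows of the same length. A match describes the letters and does not show binding. Of the 10 members, 9 matched an entry of this table; Pmaip1 did not.

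Of the anti-apoptotic members, Mcl1 had the highest level over all cells, 164 CPM in WT and 193 CPM in KO. The log2 ratio was 0.23 (0.21 to 0.26), an increase of 1.18-fold that lies well within 1.5-fold. Mcl1 encodes a short-lived protein that is destroyed and remade quickly. Its level ranged from 92.7 (WT) and 93.3 (KO) CPM in the erythroid-like cluster to 563 and 622 CPM in cluster 12, an unnamed cluster led by C1qb, Adgre4 and C1qa. Cluster 12 had 66 WT and 85 KO cells, with medians of 6081 and 7739 UMIs. At a clustering resolution of 2 the B cell-like cluster was the highest of those used (427 and 514 CPM). A cluster led by Adgre4 then had 49 WT cells, too few to be used. Among the named classes the B cell-like cells had the most (427 and 514 CPM). Basophil or mast cell-like cells (250.3 CPM) came next in WT and monocyte-like cells (228 CPM) in KO; their levels in the other library were 199.6 and 213 CPM. The KO level was the higher one in 17 of 20 clusters, with a median log2 ratio of 0.12 and a range from -0.43 (cluster 18, led by Prss34 and Mcpt8) to 0.27 (B cell-like). Over all genes with at least 10 CPM, 7.58% were higher in the KO library in 17 or more clusters, so Mcl1 belonged to a sizeable group. Under TMM scaling it was higher in 14 of 20. No cluster put Mcl1 past 1.5-fold, and weighting the 20 clusters alike reduced the log2 ratio to 0.10.

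Bcl2 stood at 106 CPM in WT and 109 CPM in KO cells (log2 ratio 0.05, 0.01 to 0.08). The ratio was -0.02 and -0.04 under TMM and median-of-ratios scaling, so no direction can be read. Bcl2 overlaps D630008O14Rik on the opposite strand over 33103 bases, and whether reads were counted by strand was not stated. The near-equal totals contained clusters that differed in both directions. Levels were highest in cluster 19, led by Gzma, Ccl5 and Siglech (336 and 332 CPM). This place depended on the clustering. At resolutions of 0.5 and 2 the highest WT level was in a cluster led by C1qb (273 and 216 CPM). The highest KO level was then in the B cell-like cluster (285 CPM at both). Of the classes, Bcl2 was lowest in erythroid-like cells (22.9 and 33.4 CPM) and neutrophil progenitor-like cells (31.0 and 17.2 CPM). HSC/MPP-like cells were at 168 (WT) and 143 CPM (KO), the highest of the 7 classes in WT, and in KO below the B cell-like cells alone (144 and 285 CPM). In WT, the interval of the B cell-like cells overlapped those of the HSC/MPP-like, the basophil or mast cell-like and the megakaryocyte-like cells, so its place is not resolved.

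Within the classes Bcl2 was lower in KO monocyte-like cells, 72.3 against 96.2 CPM (log2 ratio -0.41, -0.49 to -0.33), a difference under 1.5-fold, with the lower value in KO in each of the 3 monocyte-like clusters. In cluster 6, led by the lymphoid-primed genes Dntt and Flt3, it was higher in KO, 251 against 162 CPM (0.63, 0.50 to 0.75). That cluster included 1 KO cell with 159 Bcl2 UMIs; without the top cell of each library the log2 ratio was 0.50, and with cells weighted alike 0.49, both short of 1.5-fold. Thinning every cell to 5000 UMIs gave 0.39. The HSC/MPP-like class mixes clusters in which Bcl2 went opposite ways: the log2 ratio was 0.18 in cluster 0, led by Mecom, and -0.47 in cluster 2, led by Tox and Ror1. Cluster 0 was the largest of the class in WT (364 cells) and cluster 2 in KO (631 cells), and the class ratio of -0.24 (-0.31 to -0.17) was 0.08 at a clustering resolution of 0.5. The 8 lymphoid progenitor markers summed to 74.3 CPM in WT and 199.9 CPM in KO in this class and the 12 dendritic cell markers to 488 and 768 CPM, with 4 and 5 markers past 1.5-fold higher; their part in any value of this class was not tested.

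The neutrophil progenitor-like class gave the lowest Bcl2 ratio of the classes, -0.85 (-1.09 to -0.61), from 502 WT and 199 KO UMIs, and both of its clusters had the lower level in KO. This value depended on where the class ends. Clustering after a stricter cell filter gave 0.09, keeping doublets gave -0.06 and a resolution of 2 gave -0.18, whereas the stricter filter with the original labels gave -0.83. The class also differed between libraries in its markers. The summed level of the 12 neutrophil markers was 55014 CPM in WT and 75526 CPM in KO, with 5 of 12 past 1.5-fold higher. The 5 were Ltf (0.803 and 91.6 CPM), Ngp (10.6 and 353 CPM), Camp (309 and 1085 CPM), S100a8 and S100a9. Log2 ratios of the other neutrophil markers ran from -0.32 (Elane) to 0.24 (Cebpe). The 12 HSC/MPP markers summed to 197 and 132 CPM and the 12 erythroid markers to 148 and 62.9 CPM. The part of these markers in the Bcl2 and Bcl2l1 differences of this class was not tested.

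Bcl2l1 stood out in 1 lineage. In cluster 11, megakaryocyte-like barcodes led by Slc6a4, Tubb1 and Gp6, whose products platelets carry, it reached 551 CPM (500.1 to 606) in WT and 474 CPM (428 to 524) in KO. The next levels were 119 and 131 CPM in cluster 10, another megakaryocyte-like cluster, led by Ppbp, apart from 149 CPM in the KO cells of the B cell-like cluster. The 20-cluster medians were 41.6 and 23.9 CPM, and neutrophil progenitor-like cells were the lowest class at 17.9 and 11.0 CPM. Their intervals overlapped those of erythroid-like and monocyte-like cells in both libraries, so the lowest place is not resolved. Cluster 11 had low depth, with medians of 2809 and 3856 UMIs per barcode. No single barcode carried the level: 107 of 157 WT and 113 of 171 KO barcodes had a Bcl2l1 UMI, and the most in 1 barcode was 25 and 17. Of the 3 starts that RefSeq lists for Bcl2l1 on GRCm38.p6, 1 holds AGATAA, a form of the site that GATA factors of megakaryocytes and red cells can bind. Bcl2l1 was highest in megakaryocyte-like cells. In erythroid-like cells, the other lineage named for these factors, its intervals overlapped those of the lowest class, as given above. The part of the site in either level was not tested. This window, at chr2:152828440-152828739 on the minus strand, is shown because it holds the site, with those letters in capitals.
Bcl2l1: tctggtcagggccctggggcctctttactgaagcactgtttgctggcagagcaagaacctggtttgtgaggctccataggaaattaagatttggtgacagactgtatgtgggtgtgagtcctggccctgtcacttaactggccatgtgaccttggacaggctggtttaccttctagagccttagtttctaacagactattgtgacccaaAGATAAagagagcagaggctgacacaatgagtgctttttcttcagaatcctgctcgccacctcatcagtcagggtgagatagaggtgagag
Searched on both strands, AGATAA was present in 11.2% of all 32851 windows. That share is for a single window, while 3 were searched for Bcl2l1, and the data do not say which start was used.

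Over all cells Bcl2l1 was 42.4 CPM in WT and 39.3 CPM in KO (log2 ratio -0.11, -0.17 to -0.05), and the KO level was lower in 16 of 20 clusters, where 8.99% of all genes were lower in 16 or more. The lower levels lay in the myeloid classes and the granule-bearing cells. Monocyte-like cells had 20.1 CPM in WT and 12.2 CPM in KO (-0.72, -0.90 to -0.54), with ratios of -0.44, -0.84 and -0.69 in their 3 clusters, and neutrophil progenitor-like cells 17.9 and 11.0 CPM (-0.70, -1.01 to -0.40). Basophil or mast cell-like cells had 47.7 and 19.2 CPM (-1.31, -1.92 to -0.74). In that class the difference lay in cluster 18, led by the basophil proteases Prss34 and Mcpt8, at 59.2 and 14.7 CPM (78 and 15 UMIs; -2.02, -2.92 to -1.21), and without the top cell of each library the ratio was -1.89. Cluster 14, the other cluster of the class, stood at 31.4 and 25.9 CPM (-0.28, -1.21 to 0.62). Its libraries were close in Gata2 (569.9 and 617 CPM) and Ms4a2 (611 and 633 CPM). Cpa3 (1652 and 4847 CPM), Kit (212 and 422 CPM), Hdc (572 and 1004 CPM) and Il1rl1 (136 and 450.3 CPM) were higher in KO. The mast cell protease genes that lead it came almost wholly from KO cells. Tpsb2 had a UMI in 0 of 57 WT and 10 of 57 KO cells and Cma1 in 1 and 19. Its WT and KO cells were therefore not alike in the genes that define it.

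Unnamed clusters with lower Bcl2l1 in KO were cluster 8, led by the eosinophil granule genes Prg2 and Epx, with 23.2 and 14.5 CPM (-0.68, -1.02 to -0.33), and cluster 12, with 74.3 and 22.0 CPM (28 and 15 UMIs; -1.76, -2.77 to -0.80). Other classes differed from this in their values. The B cell-like ratio was 1.38 (0.68 to 2.11), the erythroid-like ratio -0.29 (-0.67 to 0.08) and that of cluster 11 -0.22 (-0.42 to -0.01). HSC/MPP-like cells had 55.3 and 53.6 CPM (-0.04, -0.16 to 0.08) and megakaryocyte-like cells 144 and 155 CPM (0.11, 0.00 to 0.21), and whether the ratios differ between classes was not tested. The monocyte-like ratio was -0.31 when doublets were kept and cells were clustered again, and the neutrophil progenitor-like ratio was -0.55 when family genes were allowed in the clustering, each short of 1.5-fold. In monocyte-like cells the 12 monocyte markers summed to 5311 CPM in WT and 4885 CPM in KO, and Fn1 (-0.88) and Cx3cr1 (-0.95) were past 1.5-fold lower. Their part in the Bcl2 and Bcl2l1 values of this class was not tested. The summed level of the 12 basophil and mast cell markers was 16776 CPM in WT and 22647 CPM in KO, with Cpa3, Kit, Cma1 and Tpsb2 past 1.5-fold higher and Tpsb2 at 0 in WT, and their part in the differences of this class was not tested.

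Bcl2a1b had 249 UMIs in WT and 305 in KO cells, 2.09 and 2.77 CPM, which is under the 10 CPM needed to be counted. Cluster 12 held 35.3% and 54.4% of them and cluster 19 held 37.8% and 23.6%. The levels there were 234 and 243 CPM in cluster 12 and 63.4 and 57.9 CPM in cluster 19, against medians of 0.305 and 0.329 CPM over the 20 clusters. In cluster 19, 8 of 79 WT and 11 of 67 KO cells had a Bcl2a1b UMI, and 1 WT cell alone had 55 of the 94 WT UMIs. Without the top cell of each library the log2 ratio there was 0.55. The B cell-like cluster followed with 12.7 and 14.9 CPM from 6 and 5 UMIs. The copies went with it: in cluster 12 Bcl2a1d stood at 202 and 228 CPM and Bcl2a1a at 31.8 and 77.6 CPM. With its Mcl1 and with Bcl2 at 273 and 195 CPM, cluster 12 had the highest anti-apoptotic sum of the 20 clusters, 1144 and 1082 CPM. In cluster 12 the log2 ratio was 0.06 (-0.32 to 0.45) for Bcl2a1b, 0.18 (-0.23 to 0.59) for Bcl2a1d and 1.28 (0.36 to 2.32) for Bcl2a1a, the last from 12 and 53 UMIs. Over all cells Bcl2a1a had 26 and 63 UMIs (1.39, 0.71 to 2.10), and which copy a read came from is uncertain.

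**Figure D1:**
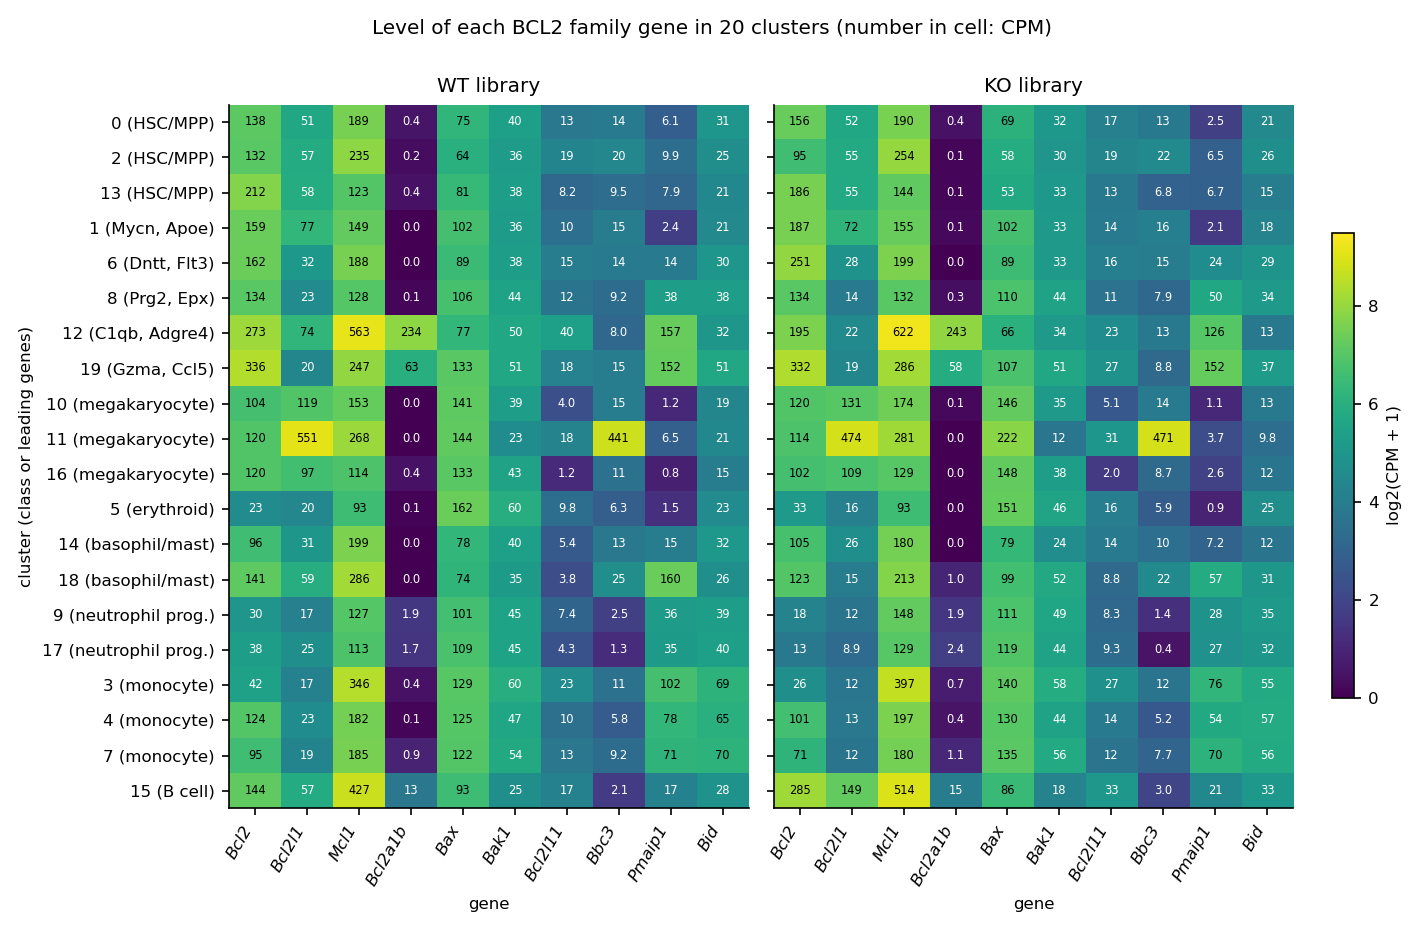
Level of the 10 genes in the 20 clusters, WT library left and KO library right; the colour gives log2(CPM + 1) and the printed number the CPM, with rows ordered by class. Bcl2l1 and Bbc3 are brightest in cluster 11, Mcl1 and Bcl2a1b in cluster 12, and Pmaip1 is dark in the megakaryocyte and erythroid rows.

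Of the pore-forming members, Bax was at 113 CPM in WT and 111 CPM in KO (log2 ratio -0.03, -0.06 to 0.01) and Bak1 at 45.3 and 42.2 CPM (-0.10, -0.16 to -0.04). BAX sits in the cytosol until activated, while BAK resides in the mitochondrial membrane. Both were the most evenly spread of the members: over the 20 clusters Bax ranged from 64.1 to 162 CPM and Bak1 from 23.4 to 59.9 CPM in WT. Erythroid-like cells had the highest Bax of the classes in WT (162 CPM) and were level with megakaryocyte-like cells in KO (151 and 153 CPM). HSC/MPP-like cells had 75.3 CPM of Bax in WT, level with basophil or mast cell-like cells (75.4 CPM), and 59.8 CPM in KO, with a log2 ratio of -0.33 (-0.44 to -0.23). In KO this was the lowest of the classes, though its interval overlapped that of the B cell-like cells. Within that class the ratio was largest in cluster 13, led by the mitotic genes Pimreg and Nusap1, at 81.2 and 53.0 CPM (-0.61, -0.80 to -0.43). In clusters 0 and 2 of the class it was -0.13 (-0.31 to 0.05) and -0.15 (-0.37 to 0.07). In cluster 11 Bax went the other way, 144 CPM in WT and 222 CPM in KO (0.62, 0.28 to 0.98).

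Bak1 was lower in KO in 16 of 20 clusters, with a median log2 ratio of -0.17, and in 2 clusters the interval lay below 0. Of all genes with at least 10 CPM, 8.99% were lower in 16 or more clusters. With cells thinned to 5000 UMIs Bak1 was lower in 11 of 20. Its ratio was -0.29 (-0.44 to -0.14) in HSC/MPP-like and -0.37 (-0.60 to -0.16) in erythroid-like cells, and 0.00 (-0.10 to 0.10) in monocyte-like cells. Bak1 lies wholly inside Ggnbp1 on the opposite strand, and with counting by strand unknown, reads of either gene may be in its count. The sum of Bax and Bak1 in HSC/MPP-like cells was 114 CPM in WT and 91.3 CPM in KO (-0.32, -0.40 to -0.23), and the sum of the anti-apoptotic members 395 and 396 CPM (0.01, -0.04 to 0.05). By cluster, the ratio of the Bax and Bak1 sum was -0.19 (-0.34 to -0.05) in cluster 0 and -0.19 (-0.37 to -0.02) in cluster 2. It was -0.48 (-0.63 to -0.33) in the mitotic cluster 13. Cluster 2 had 266 WT and 631 KO cells, and the part of the cluster mix in the class value was not tested.

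Bcl2l11 was the BH3-only member with the largest difference over all cells, 10.8 CPM in WT and 14.0 CPM in KO (log2 ratio 0.37, 0.26 to 0.48). Its product BIM binds every anti-apoptotic member and is raised when cytokine signals are lost. The KO level was higher in 17 of 20 clusters, with a median log2 ratio of 0.47, and the interval lay above 0 in 4 clusters and below 0 in 0. Of all genes with at least 10 CPM, 7.58% were higher in 17 or more clusters. In the 14 clusters with at least 10 CPM of Bcl2l11 it was higher in 11, also under TMM scaling. The 3 clusters with a lower KO level were clusters 7, 8 and 12. With clusters weighted alike the ratio was 0.35, close to the value over cells. By class, HSC/MPP-like cells had 12.2 and 16.5 CPM (0.43, 0.20 to 0.67), and erythroid-like cells 9.83 and 15.9 CPM (0.69, 0.27 to 1.11). In the mitotic cluster 13 the levels were 8.25 and 13.4 CPM (0.70, 0.24 to 1.17), but the ratio was -0.16 after thinning to 5000 UMIs. Monocyte-like cells had 13.7 and 15.4 CPM (0.17, -0.02 to 0.36).

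The erythroid-like value was the only one of Bcl2l11 past 1.5-fold whose interval excluded 0 in a class with at least 10 CPM. It was 0.56 and 0.55 under TMM and median-of-ratios scaling, just short of 1.5-fold, and 0.18 after thinning. In that class these scalings shifted every ratio by -0.14 and -0.15, its own 12 markers summed to 11813 CPM in WT and 8647 CPM in KO, and their part in the difference was not tested. The counts are small. Basophil or mast cell-like cells had 10 and 19 Bcl2l11 UMIs (1.31, 0.13 to 2.58), at 4.46 and 11.1 CPM, and megakaryocyte-like cells 48 and 66 UMIs at 4.33 and 6.62 CPM, with means under 10 CPM.

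Bbc3 shared its cluster with Bcl2l1. It stood at 441 CPM (395 to 490.3) in WT and 471 CPM (425 to 520.3) in KO in the megakaryocyte-like cluster 11, and the next highest cluster, 18, had 25.1 and 22.5 CPM. Cluster 11 was 3.51% of WT and 3.63% of KO cells and held 22.9% and 26.1% of all Bbc3 UMIs. PUMA is a p53 target and a strong killer, and BCL-XL is among the proteins that it binds. In all, 82 of 157 WT and 117 of 171 KO barcodes of that cluster had a Bbc3 UMI. Clusters 10 and 16, the other megakaryocyte-like clusters, stood at 15 and 10.6 CPM in WT and 14.2 and 8.70 CPM in KO. Over all cells Bbc3 was 12.4 and 13.3 CPM (0.09, -0.01 to 0.20), and in 0 of 20 clusters did the interval exclude 0. The clusters led by Slc6a4 and Tubb1 had the highest Bcl2l1 and Bbc3 in both libraries in each of the other clusterings tried.

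**Figure D2:**
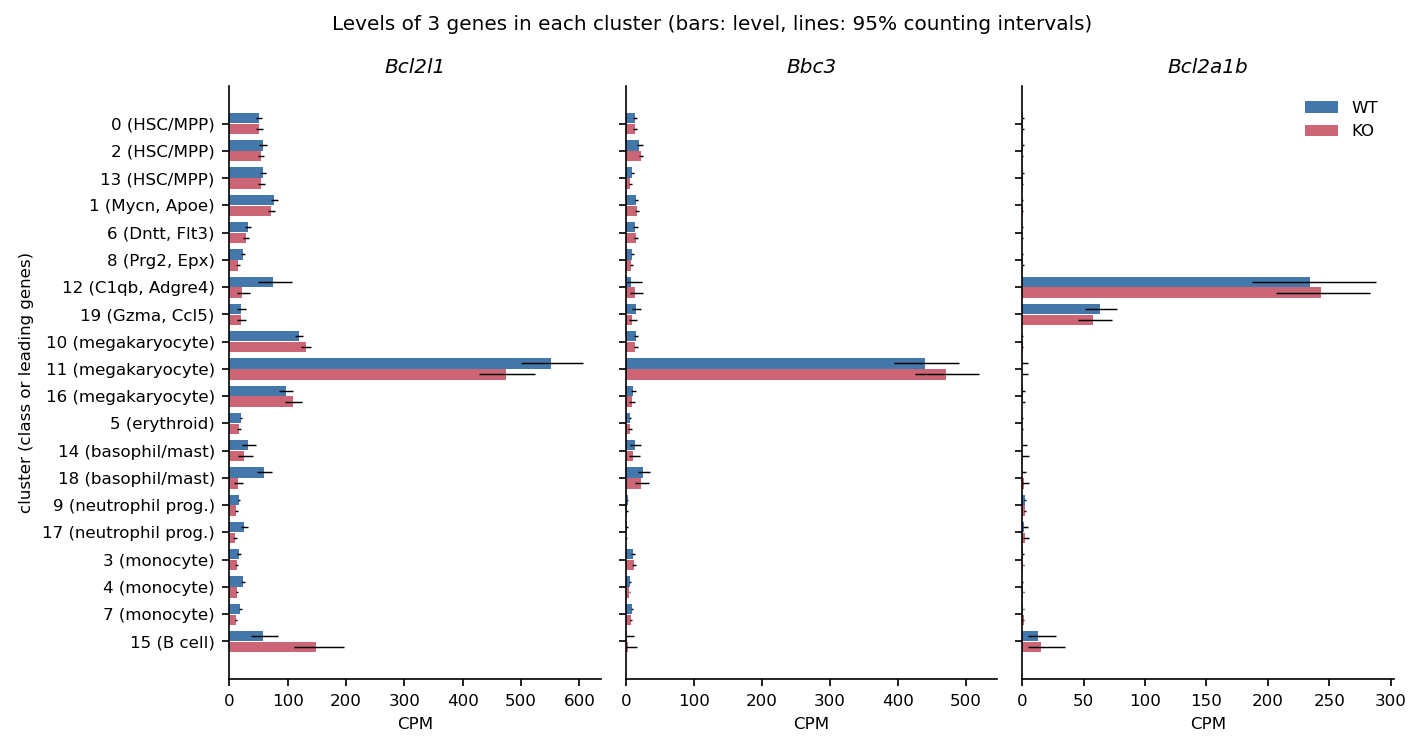
CPM of Bcl2l1, Bbc3 and Bcl2a1b in each of the 20 clusters, blue for WT and red for KO, with exact 95% counting intervals as lines. Bcl2l1 and Bbc3 both peak in cluster 11 and Bcl2a1b in clusters 12 and 19, in both libraries. In cluster 19, 1 WT cell held 55 of the 94 WT Bcl2a1b UMIs.

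Pmaip1 and Bid were the BH3-only members of the myeloid cells. NOXA binds MCL-1 and A1, and BID is cut by caspase-8 and links death receptors to mitochondria. Pmaip1 had 79.1 CPM in WT and 65.9 CPM in KO monocyte-like cells, 36.1 and 28.0 CPM in neutrophil progenitor-like cells and only 1.44 and 1.61 CPM in megakaryocyte-like cells. The erythroid-like level was 1.51 and 0.872 CPM. After thinning to 5000 UMIs, 25.7% (22.9 to 28.7) of WT and 21.5% (19.1 to 23.9) of KO monocyte-like cells had a Pmaip1 UMI, with 61.0% and 49.4% before thinning. In megakaryocyte-like cells the thinned shares were 0.718% and 0.482%. How much of any share came from free RNA was not measured. Median depths before thinning were 21278 and 18639.5 UMIs in megakaryocyte-like and 29796 and 30148 in monocyte-like cells. Thinning left out 7 and 7 monocyte-like and 114 and 113 megakaryocyte-like cells.

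Basophil or mast cell-like cells had 100.4 CPM of Pmaip1 in WT and 36.7 CPM in KO (log2 ratio -1.45, -1.88 to -1.04). The basophil cluster 18 had 160.3 and 56.7 CPM from 211 and 58 UMIs (-1.50, -1.95 to -1.07). Of its cells, 50 of 103 in WT and 25 of 73 in KO had a Pmaip1 UMI, and without the top cell of each library the ratio was -1.68. Of the members with at least 10 CPM, this was the lowest ratio in any class, and every alternative kept it past 1.5-fold, from -1.58 to -1.10. In cluster 6 Pmaip1 was higher in KO, 23.5 against 13.7 CPM (0.77, 0.34 to 1.21). In clusters 12 and 19 the libraries were close, 157 and 126 CPM and 152 and 152 CPM. Over all cells the level was 34.1 and 34.0 CPM (-0.01, -0.07 to 0.06), but with the clusters weighted alike 45.6 and 35.9 CPM (-0.35). Monocyte-like cells held 56.6% of the WT and 64.3% of the KO UMIs of Pmaip1.

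Bid stood at 37.6 CPM in WT and 34.6 CPM in KO (-0.12, -0.18 to -0.05) and its level in KO was lower in 16 of 20 clusters, with a median log2 ratio of -0.33. Over all genes with at least 10 CPM, 8.99% were lower in 16 or more clusters. With cells thinned to 5000 UMIs Bid was lower in 13 of 20. Monocyte-like cells had the most, 68.0 and 55.8 CPM (-0.28, -0.37 to -0.19), and megakaryocyte-like cells the least, 18.5 and 12.7 CPM (-0.54, -0.87 to -0.21). Intervals lay below 0 in 7 clusters and above 0 in 0. Bid overlaps Bcl2l13 by 913 bases on the opposite strand, whose own log2 ratio was -0.06.

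**Figure D3:**
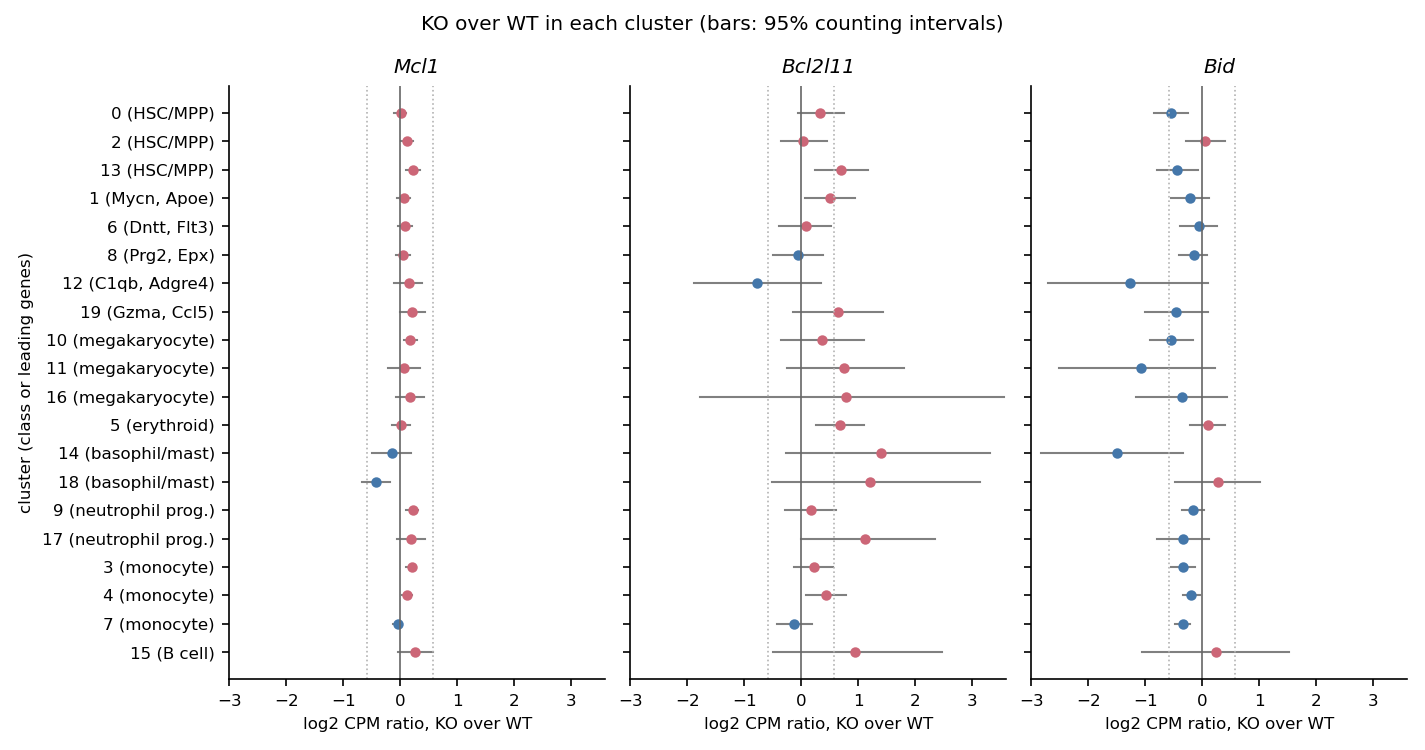
Log2 CPM ratio of KO over WT in each of the 20 clusters for Mcl1, Bcl2l11 and Bid, red above and blue below 0; bars are exact 95% counting intervals cut at the axis ends and dotted lines mark 1.5-fold. Mcl1 and Bcl2l11 lie above 0 in 17 clusters each and Bid below 0 in 16.

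Set side by side, the members differed little over all cells. In all cells 0 of the 9 members with at least 10 CPM passed 1.5-fold, where 3.29% of 8584 genes did so in either direction, 175 higher and 107 lower. These counts were 126 and 131 under TMM and 118 and 137 under median-of-ratios scaling, which moved all ratios by -0.07 and -0.08. The members' median log2 ratio was -0.01, beside 0.06 for all genes tested. Intervals of 3 members lay above 0 (Bcl2, Mcl1 and Bcl2l11) and of 3 below 0 (Bcl2l1, Bak1 and Bid). Monocyte-like cells had 1 of 8 members past 1.5-fold, Bcl2l1, which was lower, where 0.654% of genes were lower and 1.02% higher. Neutrophil progenitor-like cells had 2 of 7, Bcl2 and Bcl2l1, both lower, where 1.23% were lower and 1.37% higher. Basophil or mast cell-like cells had 2 of 8, Bcl2l1 and Pmaip1, both lower, where 3.91% were lower and 7.47% higher. In each of these classes the share of members that were lower was above the background, on a count of 1 or 2 genes. In basophil or mast cell-like cells the median of the members was -0.25, beside 0.04 for all genes.

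The remaining classes showed less. In HSC/MPP-like cells 0 of 8 members passed 1.5-fold, where 4.85% of genes did so in either direction, and in megakaryocyte-like cells 0 of 7, where 2.36% did. Erythroid-like cells had 1 of 7, Bcl2l11, which was higher, where 5.85% were higher and 0.882% lower. The B cell-like cluster had 3 of 9 higher, Bcl2, Bcl2l1 and Bcl2l11, where 17.7% of genes were higher and 21.0% lower. Its 68 WT and 51 KO cells gave 27 and 50 Bcl2l1 UMIs (57.1 and 149 CPM, log2 ratio 1.38, 0.68 to 2.11), 68 and 96 Bcl2 UMIs (0.99, 0.52 to 1.46) and 8 and 11 Bcl2l11 UMIs (0.95, -0.50 to 2.47). The B cell-like Bcl2 ratio was 0.55 when doublets were kept. Bcl2l11 turned to -0.59 when each cell was weighted alike. The same cells differed in neutrophil markers, which summed to 2776 CPM in WT and 398 CPM in KO with 6 of 12 past 1.5-fold lower and 2 and 3 at 0, while the 10 B cell markers summed to 11483 and 14209 CPM, with 2 past 1.5-fold higher, the early B cell genes Vpreb1 (402 and 843 CPM) and Rag1 (78.2 and 196 CPM), and Pax5 at -0.46. The part of these in the ratios was not tested.

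**Figure D4:**
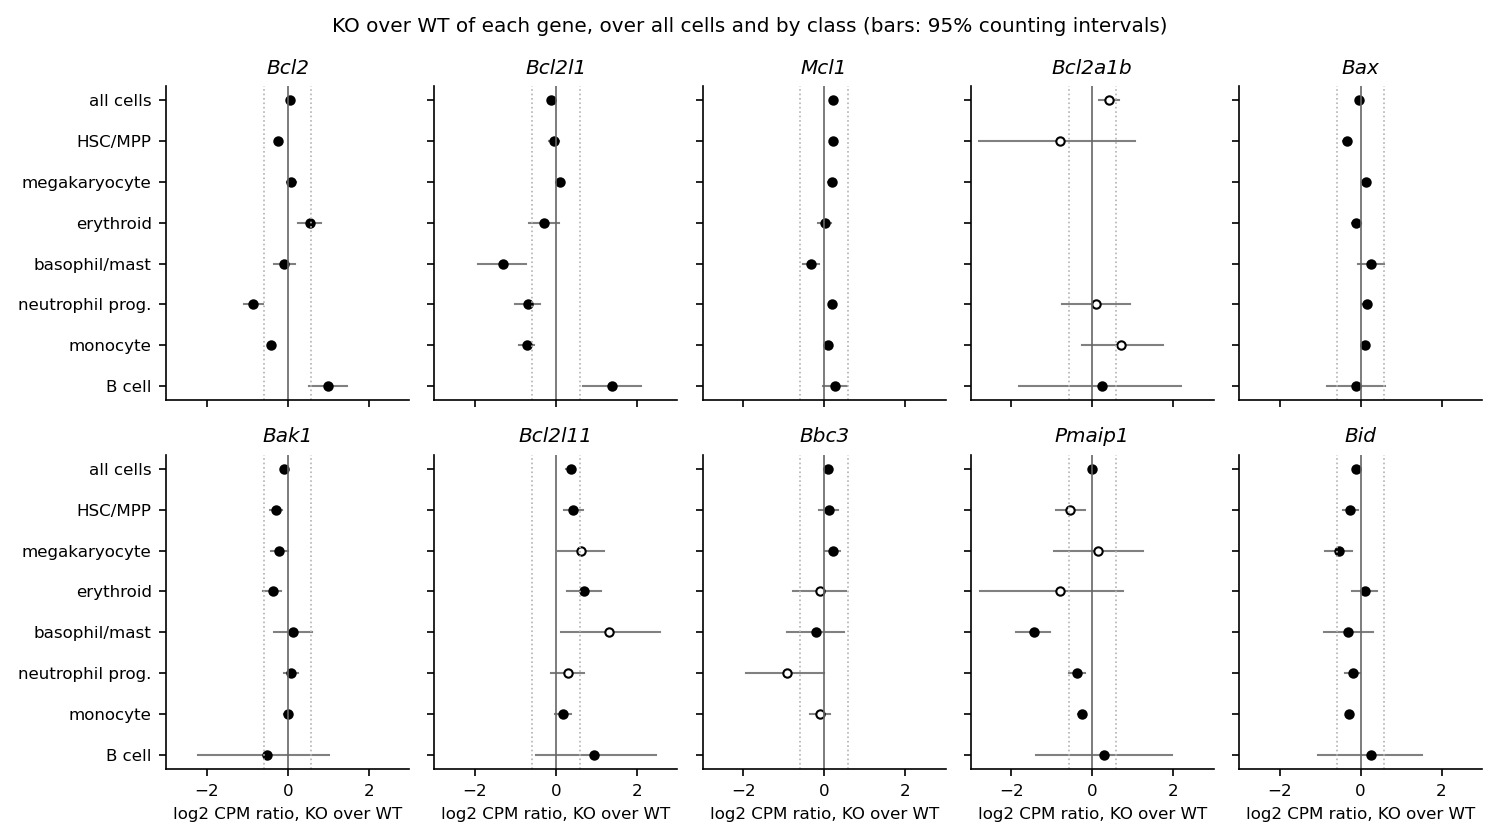
Log2 CPM ratio of KO over WT for each gene over all cells and in the 7 named classes; bars are exact 95% counting intervals cut at the axis ends, open circles mark genes under 10 CPM, dotted lines 1.5-fold, and pairs with fewer than 10 UMIs or an undefined ratio are not drawn. Bcl2l1 and Pmaip1 lie far below 0 in basophil or mast cell-like cells, and over all cells the members lie between -0.12 and 0.40.

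The members of each role were also summed; RNA does not give protein levels. Over all cells the anti-apoptotic members summed to 315 CPM in WT and 345 CPM in KO (log2 ratio 0.13, 0.11 to 0.15), the pore-forming members to 158 and 153 CPM, and the BH3-only members to 95 and 95.9 CPM. TMM scaling moves all-cell ratios by -0.07. By class the anti-apoptotic ratio was 0.59 in B cell-like, 0.13 in megakaryocyte-like, 0.08 in erythroid-like and 0.01 in HSC/MPP-like cells. It was -0.02 in neutrophil progenitor-like, -0.08 in monocyte-like and -0.33 in basophil or mast cell-like cells. The part of the class mix in the all-cell value was not tested. Erythroid-like cells were the one class in which the pore-forming sum (221 and 197 CPM) was above the anti-apoptotic sum (136 and 143 CPM) in both libraries. Monocyte-like cells had the highest BH3-only sum, 169 CPM in WT and 145 CPM in KO (-0.22, -0.28 to -0.17). The BH3-only sum of basophil or mast cell-like cells was 153 and 88.4 CPM (-0.80, -1.08 to -0.52), of which Pmaip1 was 100.4 and 36.7 CPM.

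**Figure D5:**
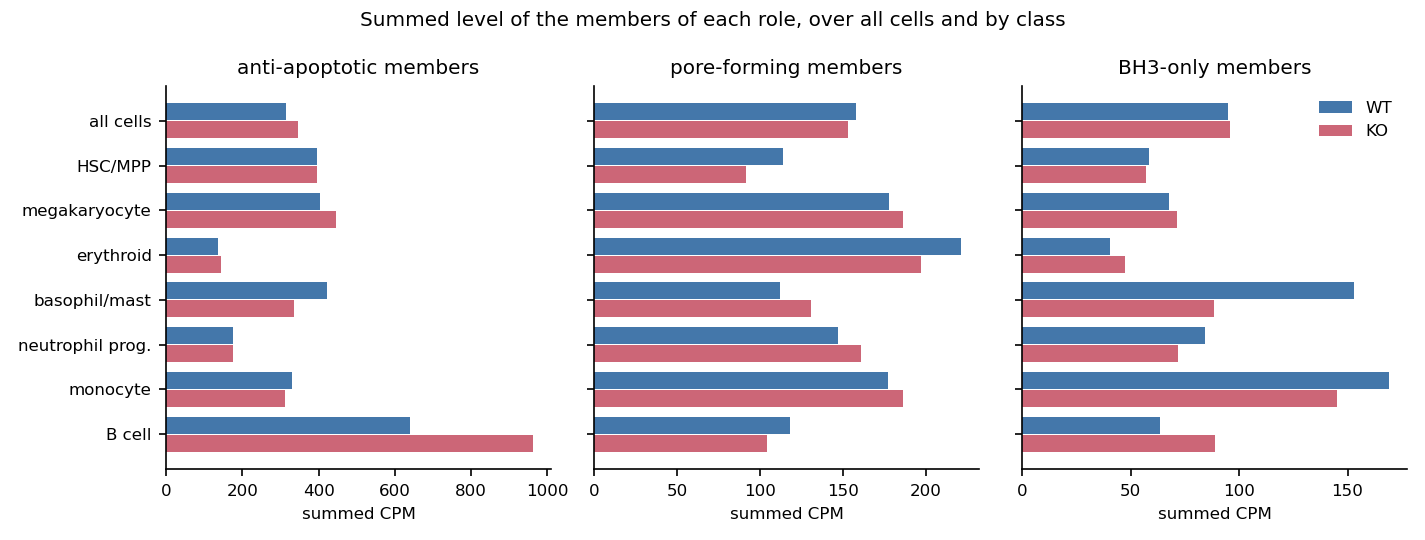
Summed CPM of the anti-apoptotic, pore-forming and BH3-only members over all cells and in the 7 classes, blue for WT and red for KO. The erythroid bars are short for the anti-apoptotic and long for the pore-forming members, and BH3-only RNA is highest in monocyte and WT basophil or mast cells.

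Patterns over clusters were compared as a description, on 20 clusters that come from the same 2 libraries and differ in depth. The levels of Pmaip1 and Bid went together, with a Pearson r of 0.77 in WT and 0.63 in KO on log2(CPM + 1). Outside the family, the genes most like Bcl2l1 were Vps13a (r = 0.949), Atp8a1 (0.936) and Nlk (0.925), with means of the libraries used. Those most like Bcl2 were Maml2 (0.841), Atp9b (0.824) and Tcf4 (0.821). Mcl1 went most closely with Macf1 (0.919), Ythdf3 (0.915) and Inpp5d (0.914), and Bcl2l11 with Ubl3 (0.850), Kdm7a (0.806) and Usp3 (0.80). Bcl2a1b went with Tank (0.884) and the class II genes H2-Eb1 (0.853) and H2-Ab1 (0.850).

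Barcodes with over 10% mitochondrial UMIs, which were left out of every value above, had their own profile. There were 553 in WT and 314 in KO, with medians of 3376 and 3864 UMIs. With CPM taken over non-mitochondrial UMIs alone, Bcl2 stood at 358 CPM in the WT and 278 CPM in the KO barcodes left out, against 109 and 113 in the cells kept. Bcl2l1 was at 168 and 117 against 43.6 and 40.5 CPM, and Bax was lower, 40.0 and 64.9 against 116 and 114 CPM. These barcodes were not assigned to classes.

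The rest of the family differed as little. Of 19 other family genes, 8 had at least 10 CPM and 0 of these passed 1.5-fold in either direction, with a median log2 ratio of 0.01. The 8 were Bad, a BH3-only protein held in check by growth factor kinases (37.0 and 40.1 CPM, log2 ratio 0.12), Bnip3 (0.12), Bnip2 (0.03), the autophagy gene Becn1 (0.02), Bcl2l12 (0.00), Bcl2l13 (-0.06), the mitophagy receptor gene Bnip3l (-0.06) and Bnip1 (-0.20). No UMI of Bcl2l10 or Hrk was counted in either library.

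Downstream and upstream genes were summarised in the same way, beside a median of 0.06 over all genes. Of 15 apoptosome and caspase genes, 13 were counted and 0 passed 1.5-fold, with a median of -0.03. The mitochondrial nuclease gene Endog was at 12.4 CPM in WT and 10.1 CPM in KO (-0.30) and the apoptosome scaffold gene Apaf1 at 45.8 and 55.7 CPM (0.28). Of the 6 inhibitor of apoptosis genes 0 passed, with a median of 0.22. Xiap stood at 0.29, Birc3 at 0.32 and the mitotic gene Birc5 at -0.33. Of 13 death receptor genes 9 were counted and 1 passed, Tnfsf10, which encodes the ligand TRAIL, at 9.78 CPM in WT and 15.5 CPM in KO (0.67, 0.56 to 0.78), where 2.04% of all genes were higher past 1.5-fold. The receptor genes Tnfrsf1b (0.46) and Tnfrsf1a (0.32) followed, and the list's median was 0.21. Of 28 regulators of the family's genes and proteins 27 were counted and 0 passed, with a median of 0.11, from -0.46 for the co-chaperone gene Bag3 to 0.35 for Stat3, with the ubiquitin ligase gene Btrc at 0.28.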

How the data were processed

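Single-cell RNA was captured with the 10x Chromium 3′ v3.1 chemistry, 1 library per genotype. The authors deposited UMI counts per gene and barcode; per the file headers, Cell Ranger 6.0.2 made the matrices. Version 3.0.1 and the build GRCm38 are listed in the submitters' processing notes. The annotation release and the treatment of strand and multimapped reads are not given in the sources used here, and vector transcripts were not analysed here. The depth was 131667969 UMIs (WT) and 120408100 UMIs (KO).

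Barcodes under 500 genes (51 WT, 32 KO) or over 10% mitochondrial UMIs (553, 314) were left out, and Scrublet removed 224 and 221 doublets, with the share set at 0.8% per 1000 barcodes. Both libraries were clustered together with scanpy 1.11.5 (2000 variable genes without BCL2 family genes, 30 components, 15 neighbours, Leiden resolution 1, igraph 0.11.9), and a cluster was named only from at least 3 detected markers. The classes were rebuilt here and may differ from those of the study. Counts were summed per library and class. Exact Poisson intervals were given for CPM, exact conditional binomial intervals for ratios and Clopper-Pearson intervals for shares, all at 95% and for counting error only. On simulated counts of 8584 genes, the ratio intervals held the true ratio for 95.2% of unchanged and 95.5% of 200 changed genes. The counts were drawn from the Poisson model that the intervals assume, so this checks the computation only. It does not cover UMIs clumped in single cells or the spread between mice.

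The 10 members, the pathway lists and the markers were chosen with earlier results of these data known. All members are named; other genes are named as the 3 most alike by Pearson r over the clusters, as those past 1.5-fold, or as those with the largest differences of a list. Alternatives were TMM scaling (edgeR 4.0.16, R 4.3.3), median-of-ratios scaling, equal weight per cell or cluster, thinning to 5000 UMIs, a stricter cell filter (1000 genes, 5% mitochondrial), doublets kept, resolutions of 0.5 and 2, family genes allowed in the clustering, and other minimum levels and folds. The stricter filter with the original labels, and leaving out the 17 cells with a barcode found in both libraries, were added after seeing the data. The value of 1 gene of the pathway lists is not reported here.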

Additional observations from a re-analysis of the deposited data

Results flagged for a closer look

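In 11 cases a KO over WT ratio was past 1.5-fold in 1 direction in some cell class or unnamed cluster while the same gene was past 1.5-fold in the other direction elsewhere, with counting intervals that exclude 0. Whether the ratios differ between classes was not tested, since each genotype has 1 library. Bcl2 was higher in KO in the B cell-like cluster (log2 ratio 0.99, 0.52 to 1.46) and in cluster 6, led by Dntt and Flt3 (0.63, 0.50 to 0.75), and lower in neutrophil progenitor-like cells (-0.85, -1.09 to -0.61). Bcl2l1 was higher in the B cell-like cluster (1.38, 0.68 to 2.11). It was lower in basophil or mast cell-like cells (-1.31, -1.92 to -0.74), cluster 12 (-1.76, -2.77 to -0.80), cluster 8 (-0.68, -1.02 to -0.33), monocyte-like cells (-0.72, -0.90 to -0.54) and neutrophil progenitor-like cells (-0.70, -1.01 to -0.40). Pmaip1 was higher in cluster 6 (0.77, 0.34 to 1.21) and lower in basophil or mast cell-like cells (-1.45, -1.88 to -1.04). The Pmaip1 ratio in cluster 6 was 0.51 after thinning to 5000 UMIs. Without the top cell of each library the Bcl2 ratio in cluster 6 was 0.50, short of 1.5-fold. Bcl2 in B cell-like and neutrophil progenitor-like cells also fell short of 1.5-fold under some settings given above. So did Bcl2l1 in monocyte-like and neutrophil progenitor-like cells.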

How the results depend on the processing

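Of 223 member ratios over all cells, classes and clusters, 1624 values under other settings were computed, and 6 of these turned the sign of a ratio that was past 1.5-fold. Of the other values, 1472 moved by less than the counting interval and 146 by more, and smaller ratios could change sign too, such as Bcl2 over all cells (-0.04) and in HSC/MPP-like cells (0.08). Cluster ratios were computed only under settings that keep the original clusters. The stricter filter with new clusters, kept doublets, other resolutions and family genes in the clustering were not run for them. Clusters 5 and 15 are also the erythroid-like and B cell-like classes, so their ratios are counted under both names. Of 39 ratios past 1.5-fold, 33 kept their direction under every setting run for them and 20 stayed past 1.5-fold in all of these. The 6 were Bcl2l11 in B cell-like cells, which are also cluster 15 (-0.59 with cells weighted alike), Bcl2 in neutrophil progenitor-like cells (0.09 with the stricter filter and new clusters), Bcl2l11 in cluster 13 (-0.16 thinned), Pmaip1 in cluster 14 (0.11 with cells weighted alike) and Bbc3 in cluster 19 (0.20 thinned). The causes were not tested; the Bcl2 value was -0.83 with the stricter filter and the original labels. A minimum of 50 CPM left 43 genes higher and 26 lower of 3367, and no minimum gave 2656 and 2456 of 21471. With the threshold at a log2 ratio of 0.32 in place of 0.58, 1 member passed over all cells, Bcl2l11, where 9.61% of genes were higher and 3.88% lower. Leaving out the 17 cells with a shared barcode moved the members' all-cell log2 ratios by at most 0.0029. No paired analysis was possible because each genotype has 1 library. Small clusters limit what depth can show: most member ratios in the B cell-like cluster rest on fewer than 100 UMIs per library.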
